A study of Mus musculus with 10 samples.

Results

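The enzymes of the later steps of mitochondrial fatty acid oxidation are encoded here by 9 genes, Hadha, Hadhb, Hadh, Echs1, Acaa2, Eci1, Eci2, Decr1 and Ech1. Their products act after the first dehydrogenation of an acyl-CoA, or prepare unsaturated fatty acids for the cycle. The 9 genes were listed by name, for their place in the pathway, and each had 1 row among the 56748 genes of the expression table. All 9 reached a mean of at least 0.5 FPKM (fragments scaled by gene length and library, as the authors made them), the minimum for testing, which 13607 genes did. The organoids are cultures of mouse colon epithelium, and RNA captured on poly-T beads was sequenced from 10 libraries. In 5 libraries (vehicle, replicates 1 to 5) the organoids had received vehicle, and in the other 5 (WY-14643, replicates 6 to 10) WY-14643 at 100 µM, a synthetic agonist of the fatty acid receptor PPARα. Treatment lasted 2 days in both groups and began 3 days after passage. The labels give no strain, genotype, age, sex, animal, organoid line or culture day, so a p-value reflects only how these libraries vary, and that variation may be technical. PPARα was removed or blocked in neither group, and the mean FPKM of Ppara itself was 0.298 ± 0.174 with vehicle and 0.336 ± 0.177 with WY-14643 (SD, n = 5 each), too low to be tested.

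Each round of mitochondrial β-oxidation shortens a fatty acyl-CoA by an acetyl unit through a dehydrogenation, a hydration, a second dehydrogenation and a thiolytic cleavage. For long chains every reaction after the first is carried out by the trifunctional protein, a membrane-bound complex of the products of Hadha and Hadhb, and for shorter chains by the soluble enzymes of Echs1, Hadh and Acaa2. Double bonds in the wrong position or configuration block the cycle, and the isomerases of Eci1, Eci2 and Ech1 and the reductase of Decr1 move or remove them. Many genes of this pathway are classical targets of PPARα in liver, while colon epithelium is known to draw much of its energy from short-chain fatty acids.

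In build mm39, as the table gives the gene spans, Hadha lies on the minus strand at chr5:30323302-30360160 (ENSMUSG00000025745) and Hadhb on the plus strand at chr5:30360246-30389591 (ENSMUSG00000059447). The pair is therefore arranged head to head, with 85 bases between the starts that the table gives. RefSeq, from which the printed sequences are taken, places the starts elsewhere. Its 300-base window around the Hadhb start, with 250 bases before it and 50 from it on, also holds most of the Hadha window: 228 bases are shared. Windows are shown for 4 genes: Hadhb, for this shared promoter; Eci2 and Eci1, 2 isomerase genes whose RNA differed in its response; and Echs1, as the 1 gene with a match to the receptor motif. The sequences are in build GRCm38.p6, another build than that of the table, at chr5:30155003-30155302 (plus strand) for Hadhb, chr13:34994095-34994394 (minus) for Eci2, chr17:24426433-24426732 (plus) for Eci1 and chr7:140116372-140116671 (minus) for Echs1. All run 5′ to 3′ along the gene. Capitals mark GC boxes, the letters GGGCGG on either strand, and in Eci2 a CCAAT box. In Echs1 they also mark the match to a direct repeat.
Hadhb: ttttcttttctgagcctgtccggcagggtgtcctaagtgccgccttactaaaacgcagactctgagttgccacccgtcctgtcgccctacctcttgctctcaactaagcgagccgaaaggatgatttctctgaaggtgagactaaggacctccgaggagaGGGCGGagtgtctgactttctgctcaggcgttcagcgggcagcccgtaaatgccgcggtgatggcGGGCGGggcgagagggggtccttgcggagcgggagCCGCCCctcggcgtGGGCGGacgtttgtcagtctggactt
Eci2: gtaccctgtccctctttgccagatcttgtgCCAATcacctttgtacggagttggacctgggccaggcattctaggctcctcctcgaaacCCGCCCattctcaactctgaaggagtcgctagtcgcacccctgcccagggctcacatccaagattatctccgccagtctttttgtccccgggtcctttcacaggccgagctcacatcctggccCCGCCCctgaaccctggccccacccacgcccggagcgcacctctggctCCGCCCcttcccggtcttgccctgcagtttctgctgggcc
Eci1: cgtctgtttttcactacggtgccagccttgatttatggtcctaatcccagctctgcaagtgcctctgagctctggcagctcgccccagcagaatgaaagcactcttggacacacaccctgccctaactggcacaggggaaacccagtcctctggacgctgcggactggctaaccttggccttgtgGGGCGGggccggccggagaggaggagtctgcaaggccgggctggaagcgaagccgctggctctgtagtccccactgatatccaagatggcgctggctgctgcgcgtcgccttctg
Echs1: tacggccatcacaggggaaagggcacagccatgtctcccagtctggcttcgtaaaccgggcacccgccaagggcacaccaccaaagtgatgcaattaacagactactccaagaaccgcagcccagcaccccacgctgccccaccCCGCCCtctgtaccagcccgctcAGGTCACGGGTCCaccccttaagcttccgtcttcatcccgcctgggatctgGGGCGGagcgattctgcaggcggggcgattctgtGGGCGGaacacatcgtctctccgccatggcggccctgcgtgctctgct

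Windows of 7 of the 9 genes were searched on both strands, those of Decr1 and Acaa2 being left out. Direct repeat 1, the form that PPARα binds with its partner RXR, consists of 2 copies of AGGTCA with 1 free base between them. It was found with at most 2 mismatches in 3.86% of all 32851 windows in the RefSeq table (1268), and in Echs1 alone among the 7. There the letters are AGGTCACGGGTCC, starting 83 bases before the gene start on the gene's own strand, and the 1 intact AGGTCA, present in 16.3% of all windows, is part of the same match. The closest stretch in Hadh had 3 mismatches, and those in Hadha, Hadhb, Ech1, Eci2 and Eci1 had 4. The motif of estrogen-related receptors, TNAAGGTCA, was in none of the 7 windows and in 1.28% of all. All 7 held a GC box, against 35.7% of all windows, but those of Hadha and Hadhb share 228 bases and are not separate windows. Eci2 and Hadh held CCAAT, against 37.4%. GC content ran from 52.3% in Ech1 to 63.7% in Echs1, with a median of 52.7% over all windows. These matches describe letters in a short window only, and binding was not measured.

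Levels of the 9 genes spanned more than an order of magnitude in vehicle organoids. FPKM is scaled by the exon length that the table gives, 1516 bases for Acaa2 and 8730 for Hadha. Whether the RNA here had these lengths was not tested, so the order of genes below holds for FPKM only. Hadha had more reads than Acaa2 in every library, as in vehicle replicate 1 with 3206 against 1000. Acaa2 was highest at 51.9 ± 11.1 FPKM (SD, n = 5), above 93.4% of tested genes, and Ech1 followed at 44.1 ± 13 FPKM, with library ranges that overlapped those of Acaa2. Hadha, Hadh, Eci1 and Echs1 formed a middle group with means from 20.5 down to 14.3 FPKM, in which each range overlapped the next and all lay below Ech1 within each library. Hadhb and Decr1, at 9.52 ± 1.81 and 8.97 ± 0.548 FPKM, overlapped each other and were below Echs1 in every library, and Eci2, at 3.56 ± 0.204 FPKM, was lowest in every library. In WY-14643 libraries the order was the same except that Hadhb, at 15.2 ± 2.70 FPKM, now overlapped Eci1 above it and Echs1 below it. Summed over the 9 genes, the level was 187.9 ± 32.8 FPKM with vehicle and 283.1 ± 48.8 FPKM with WY-14643, higher in 5 of the 5 matched pairs described next.

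No tested gene passed the comparison of the groups without pairs, and 3 of the 9 genes, Acaa2, Ech1 and Eci2, rose when libraries were compared within matched pairs. The pairs join vehicle replicate 1 with WY-14643 replicate 6, 2 with 7, and so on, because such libraries deviated alike from their own groups; the labels state no pairing. Without pairs limma called 0 of the 9 genes (0% of 13607 genes), and 6 of the 9 had an unadjusted p under 0.05 on the higher side, as had 1.01% of the genes tested (138). Limma found 205 genes under 0.05 in both directions, and voom on the recovered reads 187, also with 0 called. With pairs as a block, limma called 3 of the 9 higher and 0 lower, against 39 genes higher (0.287%) and 4 lower (0.0294%) of those tested. In 5 of the 9, Hadha, Hadhb, Acaa2, Eci2 and Decr1, every WY-14643 library was above every vehicle library (0.243% of tested genes), and in 7 of the 9 the value was higher in 5 of 5 pairs (5.63%). None was lower in 5 of 5 pairs (6.09%), and none had all WY-14643 libraries below all vehicle libraries (0.110%). The median log2 fold change was 0.60 over the 9 genes and -0.01 over all genes tested. Every fold change on a log scale was taken from log2(FPKM + 1), so that of a low gene is understated, and an adjusted p is limma's over all genes tested.

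**Figure D1:**
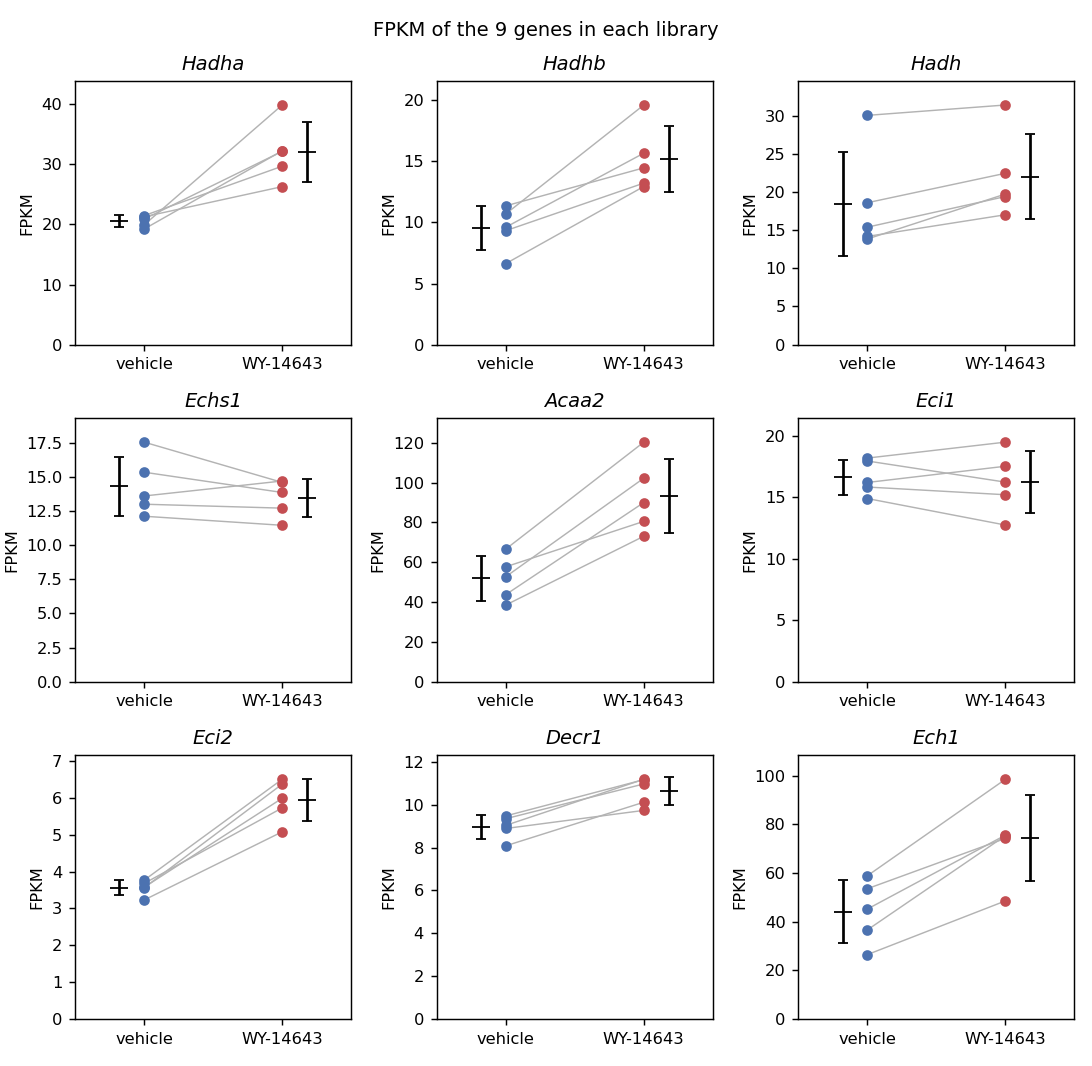
FPKM of the 9 genes in each library, one panel per gene with its own axis from 0; points are the 5 vehicle and 5 WY-14643 libraries, lines join matched pairs, and black bars are means ± SD. All 5 lines rise for Hadha, Hadhb, Hadh, Acaa2, Eci2, Decr1 and Ech1, whereas those of Echs1 and Eci1 go both ways.

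Both subunits of the trifunctional protein stood higher in every WY-14643 library, by a like amount, but neither passed the test with or without pairs. Hadha encodes the α subunit, which holds the long-chain hydratase and hydroxyacyl-CoA dehydrogenase activities. Its vehicle libraries gave 21.5, 19.9, 20.9, 19.2 and 21.3 FPKM in replicates 1 to 5, and its WY-14643 libraries 29.7, 39.9, 32.1, 32.2 and 26.3 FPKM in replicates 6 to 10. The groups did not overlap, and the treated libraries were spread more widely, with a coefficient of variation of 15.6% against 4.62% in vehicle. Replicate 7 was the highest and replicate 10 the lowest of the treated libraries. The mean was 1.56-fold higher, with a log2 fold change of 0.60 ± 0.11 (SE; adjusted p = 0.180 without pairs, 0.0684 with pairs; limma).

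Hadhb encodes the β subunit, which carries the long-chain thiolase activity. Vehicle replicates 1 to 5 held 9.32, 10.7, 9.60, 6.63 and 11.3 FPKM, and WY-14643 replicates 6 to 10 held 13.2, 19.6, 15.7, 12.9 and 14.5 FPKM. Again no treated library reached down to the vehicle range, whose low end was replicate 4, matched to the lowest treated library, replicate 9. The log2 fold change was 0.62 ± 0.15 (SE), a 1.59-fold higher mean (limma, adjusted p = 0.722 without pairs and 0.0536 with pairs). Within pairs the 2 subunits differed between treated and vehicle libraries by log2 0.45, 0.97, 0.60, 0.72 and 0.29 for Hadha and by 0.46, 0.82, 0.65, 0.87 and 0.32 for Hadhb. The smallest difference of both was in the pair of replicates 5 and 10. The table also lists Hadhb-ps, a processed pseudogene at chr2:108779151-108780578, at 13.2 ± 2.0 FPKM with vehicle and 20.6 ± 3.39 FPKM with WY-14643, with a log2 fold change of 0.61 (limma, adjusted p = 0.517 without pairs, 0.0462 with pairs). How reads that match both copies were assigned is not given in the sources used here, so the level of Hadhb is uncertain.

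The ratio of the subunits differed by less than the spread between libraries. The log2 ratio of Hadha to Hadhb was 1.05 ± 0.23 with vehicle and 1.03 ± 0.16 with WY-14643 (SD, n = 5 each), a difference of -0.02 (exact two-sided permutation test, p = 0.857, adjusted p = 0.857 over the 6 ratios compared). The sign of so small a difference turned when vehicle replicate 4 (0.07) or WY-14643 replicate 10 (0.03) was left out.

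Of the soluble enzymes, the thiolase gene Acaa2 rose in the paired comparison, Hadh did not pass, and Echs1 had a slightly lower mean. Acaa2, whose product splits acetyl-CoA from medium-chain 3-ketoacyl-CoA, lies on the plus strand at chr18:74912268-74939279 in mm39 (ENSMUSG00000036880). In vehicle replicates 1 to 5 it measured 38.5, 66.6, 52.7, 43.8 and 57.7 FPKM, and in WY-14643 replicates 6 to 10 it measured 73.1, 120.4, 102.3, 90.0 and 80.6 FPKM. The lowest treated library was above the highest vehicle library, and replicates 2 and 7, a matched pair, were the highest of their groups. The log2 fold change of 0.84 was the largest of the 9 genes (SE 0.17, adjusted p = 0.357 without pairs; SE 0.08, adjusted p = 0.0202 with pairs; limma), for a 1.80-fold higher mean. Differences within pairs were log2 0.91, 0.84, 0.94, 1.02 and 0.47, the last again in replicates 5 and 10.

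Hadh, the medium- and short-chain 3-hydroxyacyl-CoA dehydrogenase (minus strand, chr3:131027068-131065750, ENSMUSG00000027984), varied most within the vehicle group. Replicates 1 to 5 were at 15.4, 30.0, 18.6, 13.8 and 14.2 FPKM and replicates 6 to 10 at 19.4, 31.4, 22.4, 19.7 and 17.0 FPKM. The groups overlapped, since vehicle replicate 2 was above 4 of the treated libraries, yet each treated library was above its own partner. The log2 fold change was 0.27 with an SE of 0.22 without pairs and 0.06 with pairs (limma, adjusted p = 1.0 and 0.169). In the pair of replicates 2 and 7, where Hadh was highest, the difference was 0.06, and in the other pairs 0.25 to 0.48.

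Echs1, the short-chain enoyl-CoA hydratase (minus strand, chr7:139685623-139696389, ENSMUSG00000025465), was at 12.1, 17.5, 15.3, 13.6 and 13 FPKM in vehicle replicates 1 to 5. WY-14643 replicates 6 to 10 were at 11.5, 14.6, 13.9, 14.7 and 12.7 FPKM, inside or just below the vehicle range, and 4 of 5 were below their partners. The log2 fold change was -0.08 (95% interval -0.32 to 0.17 without pairs and -0.21 to 0.06 with pairs; limma, adjusted p = 1.0 and 0.696). Both intervals end below the log2 fold change of Hadha. Its span shares 678 bases with Paox on the other strand, which averaged 17.5 ± 4.26 and 15.1 ± 4.21 FPKM, and whether counting used the strand is not given in the sources used here.

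The difference between Echs1 and Hadha was larger than the spread between libraries. The log2 ratio of Echs1 to Hadha was -0.50 ± 0.23 with vehicle and -1.18 ± 0.16 with WY-14643, lower by 0.68, with no overlap (exact two-sided permutation test, p = 0.00794, the smallest that 5 against 5 libraries can give; adjusted p = 0.0238). It was lower in 5 of 5 pairs, for which exact sign flips cannot give a p below 0.0625 (adjusted p = 0.075). For Hadh to Hadha the log2 ratio was -0.21 ± 0.46 with vehicle and -0.54 ± 0.13 with WY-14643, a difference of -0.33 that did not pass (exact permutation test, p = 0.111, adjusted p = 0.152). Acaa2 to Hadhb, the soluble to the membrane-bound thiolase, had a log2 ratio of 2.32 ± 0.25 and 2.54 ± 0.14, a difference of 0.21 that did not pass either (exact permutation test, p = 0.127, adjusted p = 0.152).

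**Figure D2:**
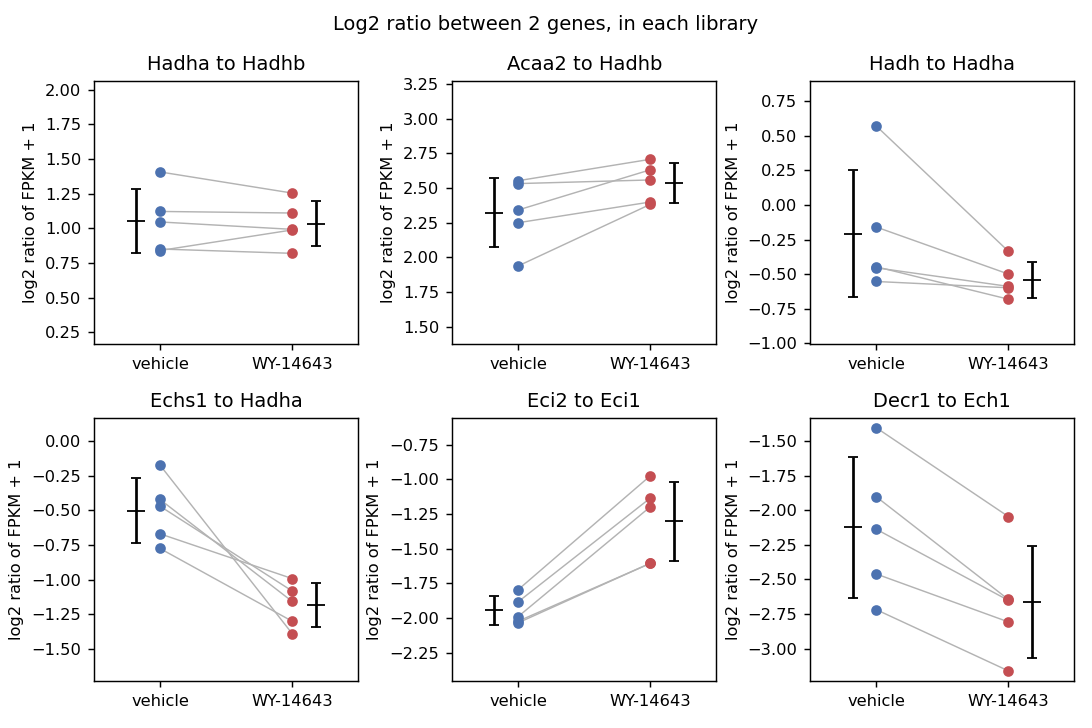
Log2 ratios of 6 gene pairs, from FPKM + 1, in each vehicle and WY-14643 library, with means ± SD as black bars and lines joining matched pairs; the axes span the same range but start at different values. Echs1 to Hadha and Eci2 to Eci1 separate the groups with no overlap, while Hadha to Hadhb stays at 1.05 in vehicle and 1.03 in WY-14643.

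The enzymes for unsaturated fatty acids were not alike: Eci2 and Ech1 rose in the paired comparison, while Decr1, slightly higher, and Eci1 did not pass. Eci2, a Δ3,Δ2-enoyl-CoA isomerase found in mitochondria and peroxisomes (minus strand, chr13:35161731-35211079, ENSMUSG00000021417), was at 3.57, 3.77, 3.56, 3.23 and 3.68 FPKM in vehicle replicates 1 to 5. In WY-14643 replicates 6 to 10 it was at 5.99, 6.51, 6.38, 5.08 and 5.73 FPKM. Both groups were tight and far apart, with coefficients of variation of 5.73% and 9.59%. Its log2 fold change was 0.60 ± 0.09 (SE) and its mean 1.67-fold higher, and its adjusted p was the lowest of the 9 genes (limma, 0.112 without pairs, 0.0128 with pairs). The differences within pairs, log2 0.52 to 0.69, were the most even among the genes that rose. Its span overlaps Gm16984, a non-coding gene on the other strand at 0.237 to 0.891 FPKM.

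Eci1, the mitochondrial isomerase of the same reaction (plus strand, chr17:24645615-24658322, ENSMUSG00000024132), was at 14.9, 17.9, 15.8, 16.2 and 18.2 FPKM in vehicle replicates 1 to 5. It was at 12.7, 16.2, 15.2, 17.5 and 19.5 FPKM in WY-14643 replicates 6 to 10, which held both the lowest and the highest value of all. Only 2 of 5 treated libraries were above their partners. The log2 fold change was -0.04 (95% interval -0.29 to 0.21 without pairs and -0.18 to 0.10 with pairs; limma, adjusted p = 1.0 and 0.867), and its sign turned without WY-14643 replicate 6 (0.04). Both intervals end below the log2 fold change of Eci2. The log2 ratio of Eci2 to Eci1 was -1.95 ± 0.10 with vehicle and -1.30 ± 0.29 with WY-14643, higher by 0.64 with no overlap and in 5 of 5 pairs (exact two-sided permutation test, p = 0.00794, adjusted p = 0.0238; exact sign flips, p = 0.0625, adjusted p = 0.075). Eci1 had the higher FPKM in both groups, on exon lengths of 2127 bases for Eci1 and 5540 for Eci2. In reads, Eci2 was above Eci1 in WY-14643 replicates 6, 7 and 8 and below it in all other libraries.

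Ech1 encodes the dienoyl-CoA isomerase that shifts a pair of double bonds during breakdown of fatty acids unsaturated at odd-numbered positions (plus strand, chr7:28524642-28531672, ENSMUSG00000053898). Vehicle replicates 1 to 5 were at 26.4, 58.8, 45.1, 36.6 and 53.5 FPKM and WY-14643 replicates 6 to 10 at 48.5, 98.5, 75.5, 75.3 and 74.2 FPKM. Treated replicate 6 lay within the vehicle range, so the groups overlapped, but its partner, replicate 1, was the lowest library of all. The log2 fold change was 0.76, a 1.69-fold higher mean, with an SE of 0.23 without pairs and 0.08 with pairs (limma, adjusted p = 1.0 and 0.0221). Differences within pairs were log2 0.85, 0.73, 0.73, 1.02 and 0.46.

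Decr1 encodes the 2,4-dienoyl-CoA reductase, which acts in the breakdown of polyunsaturated fatty acids (minus strand, chr4:15917240-15945507, ENSMUSG00000028223). It was at 9.35, 8.09, 9.48, 9.04 and 8.90 FPKM in vehicle replicates 1 to 5 and at 11.0, 10.1, 11.2, 11.2 and 9.74 FPKM in WY-14643 replicates 6 to 10. The groups did not overlap, but replicate 10 was only just above vehicle replicate 3. The 1.19-fold higher mean, a log2 fold change of 0.22 ± 0.08 (SE), did not pass (limma, adjusted p = 1.0 without pairs, 0.117 with pairs). The log2 ratio of Decr1 to Ech1 was -2.13 ± 0.51 with vehicle and -2.66 ± 0.40 with WY-14643, lower in 5 of 5 pairs, a difference of -0.54 that did not pass (exact permutation test, p = 0.0952, adjusted p = 0.152).

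The paired calls of Acaa2, Ech1 and Eci2 each depended on single pairs, and calls fell across the table too. Of the 13607 genes tested, 39 were called higher with all pairs, 3 without replicates 2 and 7, and 2 without 3 and 8. Without 4 and 9 there were 12, without 1 and 6 there were 27, and without 5 and 10 there were 30. Without replicates 2 and 7, or without 3 and 8, none of the 9 genes was called, with adjusted p from limma of 0.0913 and 0.130 for Acaa2, 0.0968 and 0.141 for Ech1, and 0.0905 and 0.0929 for Eci2. Without replicates 4 and 9 Eci2 was called (0.0491), and Acaa2 (0.0701) and Ech1 (0.0655) were not. Without replicates 1 and 6 Ech1 was not called (0.0535), and without 5 and 10 Hadhb was added (0.0499). The log2 fold changes themselves stayed between 0.56 and 0.93 for these 3 genes in the alternatives run. With a weight for each library and no pairs, limma called Acaa2 (adjusted p = 0.0237), Eci2 (0.00712) and Hadha (0.0175), among 18 higher genes (0.132%), and gave weights of 4.35 to vehicle replicate 3 and 3.90 to WY-14643 replicate 8, against at most 1.02 for the others.

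**Figure D3:**
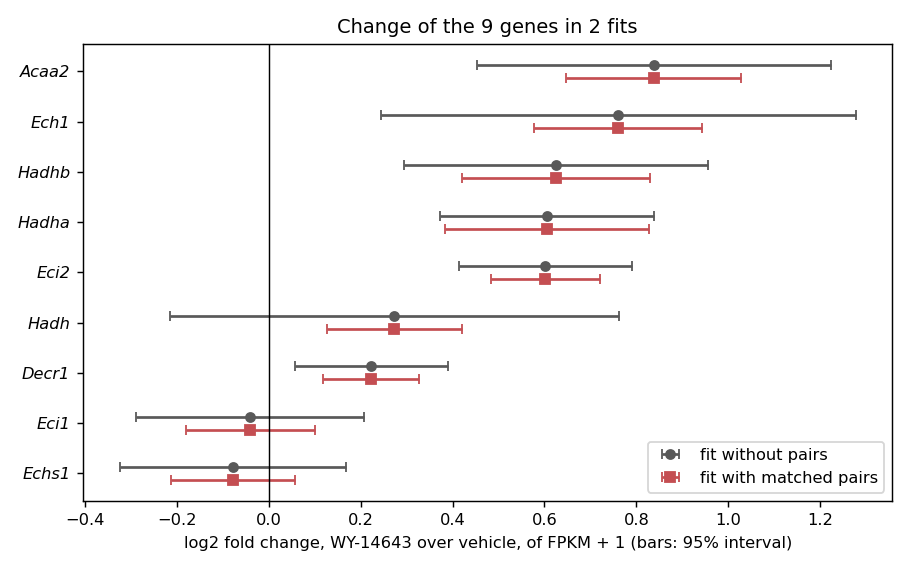
Log2 fold change of each of the 9 genes, WY-14643 over vehicle on the log2(FPKM + 1) scale, with 95% intervals from limma without pairs and with matched pairs. Acaa2 is highest at 0.84 and Echs1 lowest at -0.08, and the intervals of Echs1 and Eci1 include 0 in both fits.

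Across the 10 libraries some of these genes also varied together. As a description over libraries that share 2 treatment groups and a matched order, the correlation of Acaa2 with Ech1 was r = 0.955 (n = 10) and stayed at 0.935 after the group means were removed. For Hadha with Hadhb it was 0.884, and 0.598 after removal (n = 10). Echs1 had r = 0.200 with Acaa2 and 0.342 with Ech1, and 0.788 and 0.771 after removal, while Decr1 then ran against Ech1 (-0.54) and Eci1 (-0.61; n = 10 each). By mean correlation with the 9 genes over the same 10 libraries, the closest other genes were Abhd6, a monoacylglycerol lipase (0.675), Acadvl, the very-long-chain acyl-CoA dehydrogenase (0.674), Ate1, an arginyltransferase (0.673), Etfb (0.671) and Slc25a20 (0.668). Group means were not removed for these values. Correlations with single genes of the 9 ran from -0.05 to 0.97 for Abhd6 and from 0.28 to 0.97 for Slc25a20.

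The other genes of mitochondrial β-oxidation, formed a list of 22, of which 20 were tested. Without pairs 0 passed, and with pairs 4 rose and 0 fell: Cpt1a and Cpt2, which pass long-chain fatty acids to and from carnitine at the mitochondrial membranes, Slc25a20, the acylcarnitine carrier between them, and Acadl, a long-chain dehydrogenase. Their log2 fold changes were 1.15, 0.59, 0.84 and 0.64 (limma with pairs, adjusted p = 0.010, 0.0368, 0.010 and 0.0221). The list's median was 0.11, with 13 means higher and 7 lower. Among those that did not pass, Etfb and Etfa, the subunits of the electron transfer flavoprotein that takes electrons from the acyl-CoA dehydrogenases, had log2 fold changes of 0.63 and 0.37 (adjusted p = 0.0540 and 0.0620 with pairs, limma). Acadvl and the short-chain Acads were at 0.47 and 0.31, and Echdc3 and Acadsb at -0.16 and -0.07. Hsd17b10 and Acat1, which act on short-chain and branched-chain intermediates and were picked after their values were seen, were at 43.8 ± 5.92 and 42.4 ± 4.87 FPKM and at 23.6 ± 3.35 and 22.7 ± 3.29 FPKM.

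Peroxisomes run a parallel cycle with their own enzymes, and 10 of its 11 listed genes were tested. One rose with pairs, Ehhadh, the peroxisomal counterpart of the hydratase and dehydrogenase of Hadha, from 3.07 ± 0.683 to 5.15 ± 1.35 FPKM (log2 fold change 0.58, limma, adjusted p = 0.0428 with pairs and 1.0 without). Acaa1b, a peroxisomal thiolase, was at 0.524 ± 0.264 and 1.91 ± 0.958 FPKM with no overlap, but did not pass (limma, adjusted p = 0.208 with pairs). Hsd17b4 and Acaa1a had log2 fold changes of 0.11 and 0.16, and the reductases Pecr and Decr2 of -0.07 and 0.01. Eci3, a close relative of Eci2, was at 0 in every library. The list's median was 0.12.

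Lists for other mitochondrial functions gave no call with or without pairs. The TCA cycle (17 tested) had a median log2 fold change of 0.02, with Suclg2 at 0.16, Suclg1 at 0.15 and Idh3a at -0.02. Breakdown of branched-chain amino acids (15 tested) had a median of -0.03, and Dbt, a subunit of the branched-chain ketoacid dehydrogenase, was lower in 5 of 5 pairs at -0.24 (limma, adjusted p = 0.129 with pairs). Mitochondrial import, pores and chaperones (13 tested) had a median of -0.02, with Timm23 at -0.10 and Hspd1 at -0.08. Receptors and cofactors of the pathway (7 tested) had a median of 0.03. There Ppargc1b was at 0.24, Esrra at 0.08, Ppard at 0.06 and Pparg at -0.21, and none passed.

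**Figure D4:**
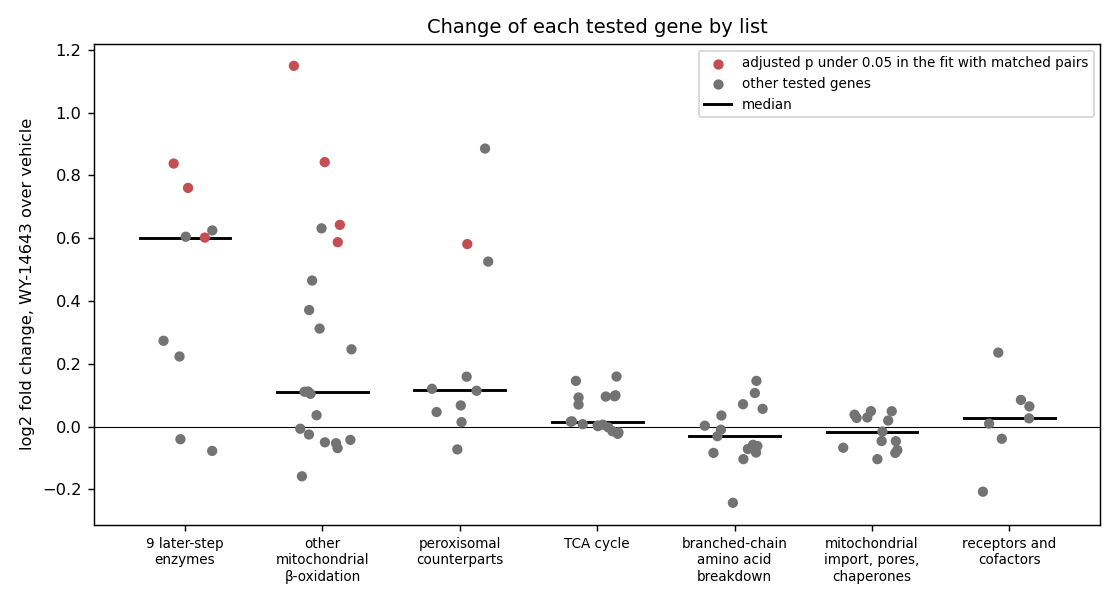
Log2 fold change of each tested gene, WY-14643 over vehicle, in the 9 later-step enzymes and 6 other lists; bars are medians, and red points passed limma with matched pairs. The median of the 9 genes is 0.60, and those of the other lists lie between -0.03 and 0.12.

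Libraries held between 15618244 and 29271304 recovered reads, and each of the 9 genes rested on 282 to 5839 reads per library. Fibroblast and endothelial markers were near 0. Summed FPKM of 6 fibroblast genes was 0.0356 to 0.185 with vehicle and 0.0351 to 0.214 with WY-14643, Dcn and Lum being at 0. That of 4 endothelial genes was at most 0.164. Of 6 immune genes the sum was 2.35 to 5.30 and 2.0 to 6.44 FPKM, with Cd3e and Lyz2 at 0. The 9 epithelial genes summed to 4194 to 7029 and 3920 to 7470 FPKM. The 9 genes of colon identity summed to 328.1 to 1336 FPKM with vehicle and 556.2 to 1959 FPKM with WY-14643. Their sum was higher in 5 of 5 pairs, with Car4, Hoxb13, Hoxd13 and Hoxa13 at 0. All 4 tested had higher fitted means (median log2 fold change 0.32), but none was higher in 5 of 5 pairs. A list of 9 small intestine genes summed to 7.23 to 36.9 FPKM with vehicle and 9.21 to 76.9 FPKM with WY-14643. Of these genes 2 were tested, and both had higher fitted means (median log2 fold change 0.48), 1 of them in 5 of 5 pairs. The summed level of 9 genes of absorptive colonocytes was 13.4 to 219.6 FPKM with vehicle and 17.2 to 319.6 FPKM with WY-14643, Car4 being at 0. It was higher in 5 of 5 pairs, as were 7 of the 9 later-step enzyme genes and 5.63% of tested genes. Most of that sum came from Krt20, higher in 4 of 5 pairs, and Cyp2c55, the 1 gene of the 6 tested there that was higher in 5 of 5. Of 7 tested goblet cell genes 6 had lower fitted means (median log2 fold change -0.27), and Muc2 and Clca1 were lower in 5 of 5 pairs. Of 6 tested stem cell genes 4 had lower fitted means, with a median of -0.01, and Lgr5 was lower in 5 of 5 pairs. None of these marker genes passed limma with or without pairs, and their part in the differences of the 9 genes was not tested. In such bulk RNA, more cells of a type and more RNA per cell cannot be told apart.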

How the data were processed

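The deposited FPKM values, 1 per gene and library, are the authors' own. The submitters' processing notes name HISAT2 (2.0.5), featureCounts (1.5.0-p3) and mm39. Annotation release, strand setting and treatment of multiply matching reads are each not given in the sources used here. FPKM times the table's exon length gave whole reads in 100% of values (tolerance 0.01), used for depth and a voom alternative.

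Groups and replicate numbers follow the labels. Genes averaging at least 0.5 FPKM (24% of the table) were compared by limma 3.58.1 in R 4.3.3 on log2(FPKM + 1), with a mean-variance trend, robust priors, no covariate, Benjamini-Hochberg adjustment and a threshold of 0.05. The alternative fit blocks on pairs in numerical order: deviations from group means correlated at 0.423 to 0.782 across genes within pairs and at most 0.0602 between unmatched libraries of different groups. Ratios were tested over libraries by exact permutation (scipy 1.17.1), adjusted over 6. Figures used matplotlib 3.10.9 in Python 3.11.15. The fits were tested on simulated data.

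The 9 genes, the lists and the tests were chosen with earlier results of these data known. Named from each list were genes called in either fit, up to 4 more with the smallest p and up to 2 at the other end of fold change; others are marked in the text, and 1 gene of the rule is not reported here. Other alternatives were another pseudocount, other filters, quantile normalization, centring on the TCA cycle, voom, library weights and leaving out each library or pair.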

Additional observations from a re-analysis of the deposited data

Results flagged for a closer look

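Among 114 groups of 5 libraries checked for a library that stands apart from the rest, 6 had one, and chance gives about 1 in 20. None belonged to the 9 genes. In vehicle libraries, Suclg1 was at 14.1 FPKM in replicate 4 and at 21.7 to 22.6 FPKM in the others, and Ppargc1a was at 4.41 FPKM in replicate 2 and at 0.532 to 1.42 FPKM in the others. In WY-14643 libraries, 3 of the flags fell on replicate 6: Hspd1 was at 274.4 FPKM there and at 162.8 to 189.1 FPKM elsewhere, Esrra at 20.1 against 25.5 to 27.3 FPKM, and Rxrb at 9.40 against 13.2 to 14.3 FPKM. Ppard was at 11.5 FPKM in WY-14643 replicate 10 and at 15.1 to 15.7 FPKM in the others.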

How the results depend on the processing

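Each fitted value had 24 alternatives and each ratio 12. The log2 fold changes of Hadha, Hadhb, Hadh, Acaa2, Eci2, Decr1 and Ech1 were above 0 and that of Echs1 below 0 in every alternative run, and the median over the 9 genes ran from 0.51 to 0.63. Over single libraries left out, Eci1 ran from -0.11 to 0.038, turning sign without WY-14643 replicate 6 (0.038), and it also did so with a replicate block without replicates 1 and 6 (0.0023). With a mean FPKM of at least 5, Eci2 was not tested and no median was computed. Counts moved most. Leaving out 1 library gave 0 to 2 genes higher, 0 lower and 0 of the 9 called. Library weights called 18 higher, 3 lower and 3 of the 9. The replicate block called 39, 4 and 3, and with centring on the TCA cycle, added after the data were seen, 44, 15 and 4. The block called 27, 6 and 2 without replicates 1 and 6, 3, 0 and 0 without 2 and 7, 2, 0 and 0 without 3 and 8, 12, 1 and 1 without 4 and 9, and 30, 3 and 4 without 5 and 10. With fewer pairs fewer degrees of freedom remain; the cause was not tested further. The ratio of Echs1 to Hadha (-0.68) and of Eci2 to Eci1 (0.64) passed in every setting that left out 1 library. That outcome was fixed in advance, since groups without overlap stay apart when a library is left out. The exact permutation test then gives its smallest p for 4 against 5 libraries, 0.0159 (adjusted p = 0.0476). Both ratios missed the threshold with sign flips of the replicate block (adjusted p = 0.075), where 5 pairs cannot give a smaller p than 0.0625. Over single libraries left out, Hadha to Hadhb ran from -0.075 to 0.069 and reversed when vehicle replicate 4 (0.069) or WY-14643 replicate 10 (0.033) was left out. The lowest number of reads behind a value of the 9 genes was 282, for Eci2 in vehicle replicate 4.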
